A study of Mus musculus with 22 samples.

Results

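Arginine is the shared substrate of enzymes that compete for it in lung. The arginases Arg1 and Arg2 split it into urea and ornithine, the inducible nitric oxide synthase Nos2 turns it into nitric oxide and citrulline, and argininosuccinate synthase Ass1 starts the route that rebuilds arginine from citrulline. Ornithine feeds polyamine synthesis through ornithine decarboxylase Odc1 and spermidine synthase Srm, and Sat1 acetylates polyamines for breakdown and export. Slc7a2 is a cationic amino acid transporter that carries arginine into macrophages and other cells. Arg1 is a classical marker of alternatively activated mouse macrophages, and Nos2 of classically activated ones.

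These 8 genes were set by name and by their role in the pathway, with no rule on the array values. Earlier results of these data were known when they were chosen. Each was found through the RefSeq accession of the array probes. They were 8 of 20018 named genes and were read by 12 of 55681 probes. Arg1, Arg2, Nos2, Slc7a2 and Sat1 had 1 probe each, Ass1 and Srm had 2, and Odc1 had 3. Each gene is given by its brightest probe, and all 8 were above the level of the negative control spots.

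Lung RNA of 22 female C57BL/6 mice, 8 weeks old at the start, was measured 24 h after a single intratracheal instillation of Mitsui7, a multiwalled carbon nanotube. The groups were vehicle controls given saline with bronchoalveolar lavage fluid (n = 5) and mice given 18 µg (n = 6), 54 µg (n = 5) or 162 µg (n = 6) of nanotubes per mouse, and every mouse was instilled under anaesthesia. Values are log2 ratios of RNA from the right lung lobes, labelled with Cy5, to a common reference RNA from 11 mouse cell lines, labelled with Cy3 on the same array. A value of 0 is the level in the reference, so a level cannot be compared between genes, only between mice for the same gene.

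The arrays lay on 7 slides, with 3 to 4 arrays a slide, and 2 of the slides held no control. A gene was called when its adjusted p (limma with dose and slide, Benjamini-Hochberg over all probes) was at most 0.05, its change was at least 1.5-fold, and it was expressed. The 3 arrays of slide 3 had 1019 to 2619 spots marked as outliers by the scanner software, and 1 of these spots was the Arg1 spot of 54 µg replicate 3, which therefore has no value. The type II alveolar markers (Sftpc, Sftpb, Abca3 and Lamp3) had a mean log2 ratio between 4.30 and 5.61 on every array, far above the reference. Markers of other lung cells did move: all 4 ciliated markers had negative log2 fold changes at each dose, with medians of −1.10, −0.49 and −1.03 and a mean level of 3.50 to 3.95 in the controls against 1.26 to 3.99 in treated mice. Called at 162 µg were the ciliated marker Rsph1 (−1.45), the B cell marker Ms4a1 (−0.89) and the club cell marker Cyp2f2, all lower. The type I alveolar marker Pdpn (1.04) and the alveolar macrophage marker Marco (1.51) were called higher. They were 1 of 4 ciliated, 1 of 4 lymphocyte, 1 of 2 measured club, 1 of 4 type I and 1 of 8 alveolar macrophage markers. The lymphocyte, type I and alveolar macrophage lists had median log2 fold changes of −0.32, 0.22 and 0.18 there. The part of these cells in the results was not tested. In whole lung, fewer cells of a type and less RNA per cell cannot be told apart.

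Arg1, Arg2 and Srm rose with nanotube exposure, and the other 5 genes were called at no dose against the controls. Arg1 and Srm were higher at all 3 doses, while Arg2 was called at 162 µg only. None of the 8 genes was called lower. Against the controls, 2 of the 8 were called at 18 µg, where 1.69% of all 20018 genes were called in either direction. At 54 µg 2 of the 8 were called, beside 0.29% of all genes, and at 162 µg 3 of the 8, beside 5.61%. The shares of all genes called higher were 0.52%, 0.18% and 2.72% at the 3 doses.

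**Figure D1:**
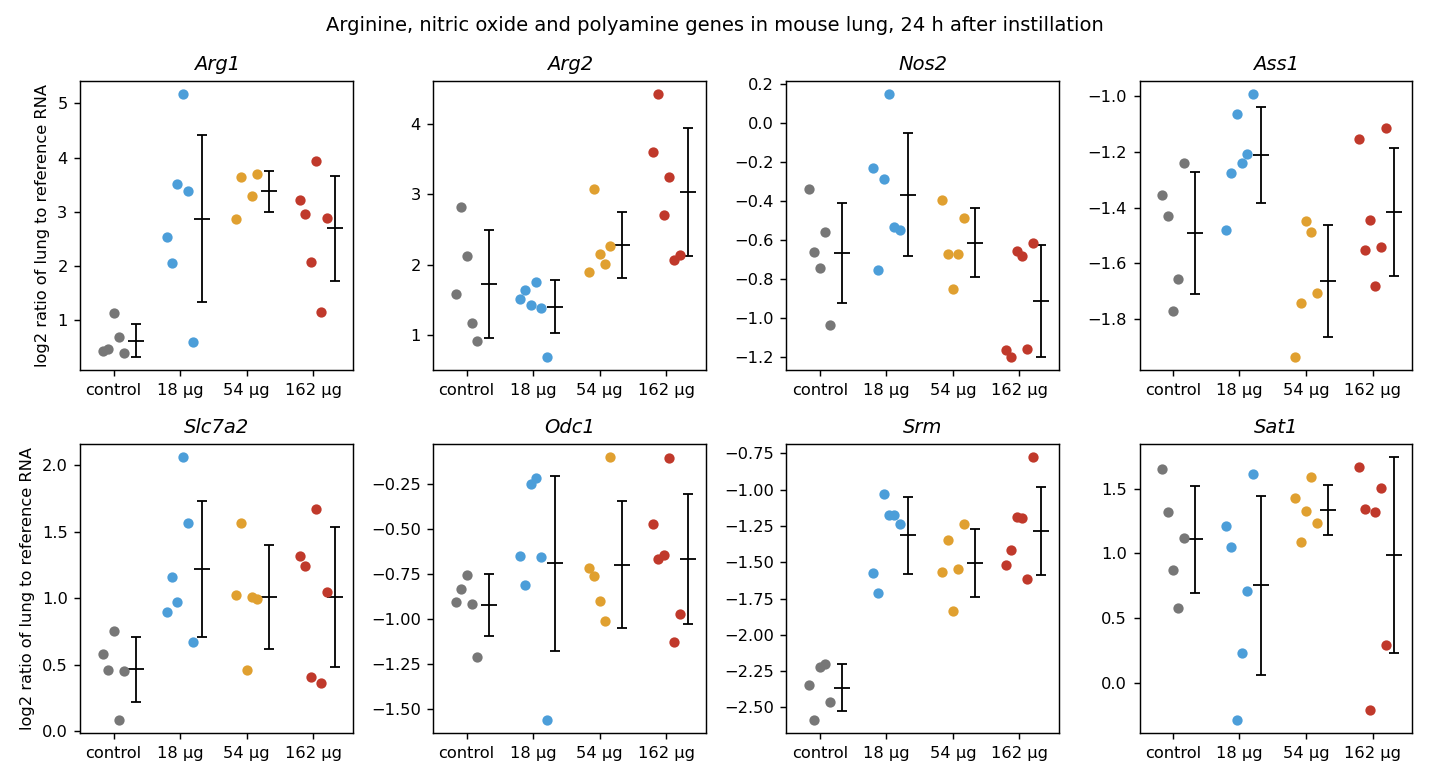
Log2 ratio of lung RNA to reference RNA (vertical axis, with its own range in each panel) for the brightest probe of each gene, by group (horizontal axis). Each point is 1 mouse, and the bar beside each group gives the mean and SD. Srm was higher in every treated mouse than in any control, Arg1 in all but 1 of the treated mice with a value, and Arg2 was called at 162 µg only.

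Arg1 had the largest fitted change of the 8 genes at each of the 3 doses. The 5 control mice had log2 ratios of 0.43, 0.48, 1.13, 0.69 and 0.41. The 6 mice given 18 µg ranged from 0.60 to 5.17 with a median of 2.96. The 4 mice with a value at 54 µg had 2.87, 3.65, 3.30 and 3.70. The 6 mice given 162 µg ranged from 1.15 to 3.93 with a median of 2.92. All 4 mice with a value at 54 µg and all 6 at 162 µg lay above every control, and at 18 µg 5 of 6 did. The exception was 18 µg replicate 6, whose Arg1 of 0.60 lay within the control range. The 54 µg mouse without a value, replicate 3, had the lowest Slc7a2 of its group (0.46). Of the 8 genes, Slc7a2 had the pattern most like that of Arg1, so the level at 54 µg may be affected by the missing value.

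The fitted rise of Arg1 was 4.17-fold at 18 µg (log2 fold change 2.06, SE 0.46, limma adjusted p = 0.0407). It was 7.57-fold at 54 µg (2.92, SE 0.51, adjusted p = 0.0332; the mouse without a value was dropped from this probe's fit) and 3.39-fold at 162 µg (1.76, SE 0.46, adjusted p = 0.0327). The 95% intervals of the fold were wide, 2.11 to 8.22, 3.56 to 16.1 and 1.72 to 6.69 at the 3 rising doses. Within slides, Arg1 was above the control of the same slide in 11 of 11 treated mice, by 0.74 to 2.98 on the log2 scale. These 11 mice share 5 controls, so the differences are not independent. The mouse 18 µg replicate 6 lay on a slide without a control and is not among them.

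The calls of Arg1 stood close to the threshold. Leaving out 1 array at a time kept the rise in all 22 fits at each dose, with changes of 1.75 to 2.43 (18 µg), 2.63 or more (54 µg) and 1.47 to 2.08 (162 µg). At 18 µg the adjusted p passed 0.05 in 14 fits, those without any control, without 18 µg replicate 1, 3, 4 or 5, without 54 µg replicate 1, 2 or 4 or without 162 µg replicate 2 or 4, and reached 0.117. At 54 µg it did so in 9, without any control, 54 µg replicate 1, 2 or 4 or 162 µg replicate 1, reaching 0.157. At 162 µg it did so in 9, without any control, 18 µg replicate 1 or 162 µg replicate 1, 2 or 6, reaching 0.122. Without the 3 arrays of slide 3 the change at 18 µg was 1.96 (adjusted p = 0.0587). With the authors' deposited log2 values in place of the scanner signals Arg1 changed by 1.92, 1.89 and 1.81 and was called at no dose (adjusted p = 0.157, 0.433 and 0.108).

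No difference between doses passed the test for Arg1. The difference of 162 µg from 18 µg was −0.30 (95% interval −1.21 to 0.61, limma adjusted p = 0.820). From 54 to 162 µg Arg1 was lower by 1.16 with an interval of −2.23 to −0.09, which did not pass the correction over all probes (adjusted p = 0.598). The difference of 54 µg from 18 µg was 0.86 (interval −0.21 to 1.93, adjusted p = 0.607). These intervals leave room for differences of more than 2-fold between doses.

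Arg2, the mitochondrial arginase, was called against the controls at the highest dose only. The controls had log2 ratios of 1.59, 2.82, 2.12, 1.17 and 0.91. The 18 µg mice ranged from 0.69 to 1.75 with a median of 1.46. The 54 µg mice had 1.89, 3.07, 2.15, 2.00 and 2.27. The 162 µg mice ranged from 2.06 to 4.42 with a median of 2.97. The 162 µg group lay wholly above the 18 µg group, but only 3 of its 6 mice were above every control, because control replicate 2 stood at 2.82.

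**Figure D2:**
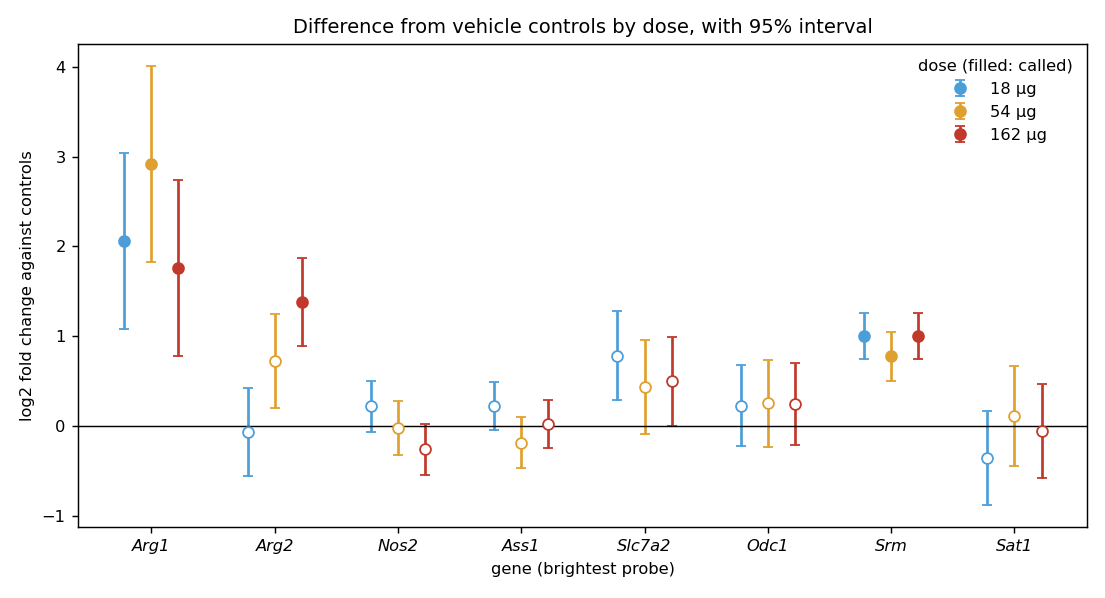
Log2 fold change against the vehicle controls (vertical axis) for each gene (horizontal axis) at 18, 54 and 162 µg, with the 95% interval as the bar; filled points were called. Arg1 and Srm have filled points at all 3 doses and Arg2 at 162 µg only, where it was 1.38.

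Arg2 was not called at 18 µg (log2 fold change −0.07, SE 0.23, limma adjusted p = 0.932) or at 54 µg (0.73, SE 0.25, adjusted p = 0.344). At 162 µg it was 2.60-fold higher than in the controls (1.38, SE 0.23, adjusted p = 0.0022, interval of the fold 1.85 to 3.66). Arg2 was also 2.73-fold higher at 162 µg than at 18 µg (1.45, SE 0.22, adjusted p = 0.0012), and it was the only member called in this comparison, in which 4.09% of all genes were called. The steps from 18 to 54 µg (0.80, adjusted p = 0.254; 0.025% of all genes called) and from 54 to 162 µg (0.65, adjusted p = 0.448) did not pass. In the last comparison limma called 0 genes (0%), with 3947 probes at an unadjusted p under 0.05.

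Neutrophil markers varied widely among the controls and among the 162 µg mice. The mean log2 ratio of 7 of them (S100a8, S100a9, Retnlg, Csf3r, Cxcr2, Mmp8 and Ngp) ran from 2.07 to 4.94 over the controls and from 2.30 to 5.03 over the 162 µg mice. The 18 µg mice spanned 2.46 to 2.96, and the 54 µg mice 2.44 to 3.42. All 7 were expressed, and none was called at any dose. At the 3 rising doses, 3, 6 and 6 of the 7 had positive log2 fold changes against the controls, with medians of −0.03, 0.19 and 0.68. Between 162 and 18 µg all 7 were positive, with a median of 0.71 and none called. Control replicate 2, with the highest Arg2 of the controls, had the control maximum of 4.94, and 162 µg replicate 2, with the highest Arg2 of all mice, had the maximum of 5.03. The controls ran in the same order for both, apart from replicates 1 and 3 (Arg2 of 1.59 and 2.12, marker means of 2.65 and 2.45). Among the 162 µg mice, replicate 5 had the lowest Arg2 (2.06). Its marker mean of 3.51 was close to the 3.48 and 3.54 of replicates 1 and 4, which had more Arg2. At 18 and 54 µg the mouse with the highest marker mean was not the one with the highest Arg2. The lowest of both at 18 µg was replicate 6 (Arg2 of 0.69, marker mean of 2.46). Leaving out control replicate 2 gave an Arg2 change of 1.61 at 162 µg. The part of neutrophil content in the Arg2 result was not tested.

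**Figure D3:**
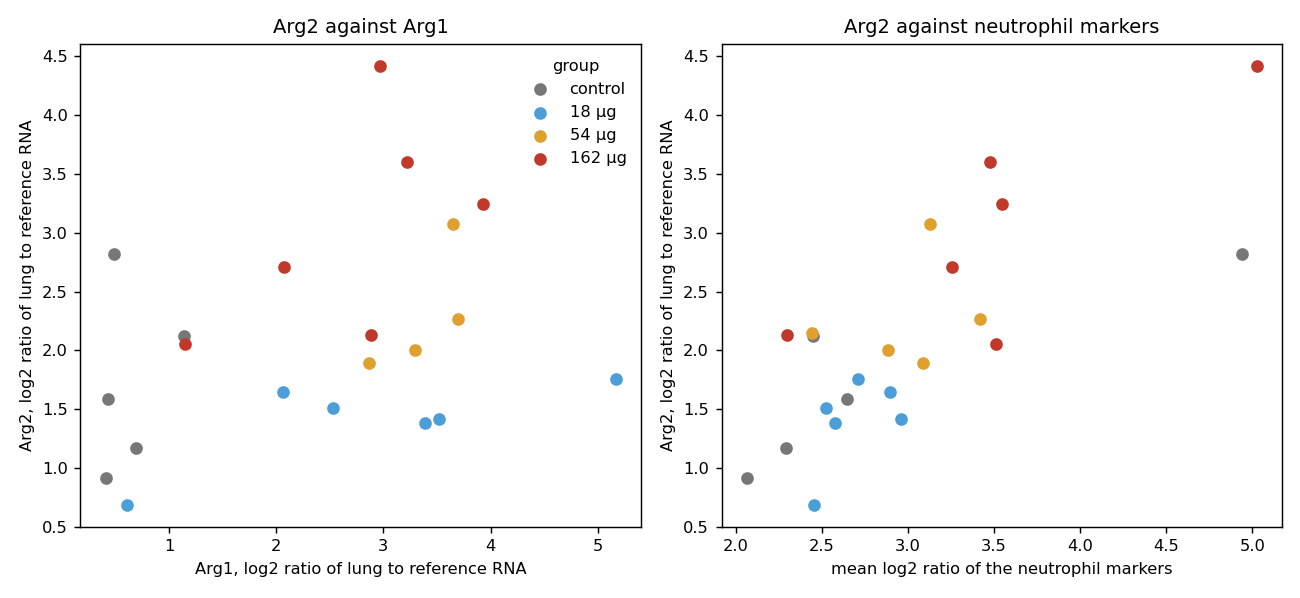
Arg2 (vertical axes) against Arg1 (left) and against the mean of the 7 neutrophil markers (right), all as log2 ratios of lung to reference RNA, with 1 point per mouse and colour for the group. On the left 5 of the 18 µg mice lie far to the right at low Arg2, and on the right the control and the 162 µg mouse with the highest marker means, 4.94 and 5.03, have the highest Arg2 of their groups.

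Srm, which makes spermidine from putrescine, had the narrowest spread of the 3 genes called. Its control log2 ratios were −2.35, −2.58, −2.22, −2.20 and −2.46. The 18 µg mice ranged from −1.71 to −1.03 with a median of −1.20, and the 162 µg mice from −1.61 to −0.77 with a median of −1.30. The 54 µg mice had −1.57, −1.35, −1.84, −1.54 and −1.23. Every treated mouse lay above every control, and the dose groups overlapped one another.

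Srm rose 2.00-fold at 18 µg (log2 fold change 1.00, SE 0.12, limma adjusted p = 0.0028), 1.71-fold at 54 µg (0.78, SE 0.13, adjusted p = 0.0246) and 2.01-fold at 162 µg (1.00, SE 0.12, adjusted p = 2.5e-04). The 162 µg and 18 µg groups differed by 0.0040 with an interval of −0.24 to 0.25. The second Srm probe was also called at all 3 doses, with log2 fold changes of 0.81, 0.73 and 0.91, and it followed the first over the 22 arrays (Pearson r = 0.949). Within slides Srm was above the same slide's control in 11 of 11 treated mice, which share 5 controls, by 0.78 to 1.29. The call at 54 µg was lost in 8 of the 22 fits without 1 array (control replicate 1, 3, 4 or 5, 54 µg replicate 1, 2 or 4, or 162 µg replicate 1), with log2 fold changes no lower than 0.72 and a highest adjusted p of 0.131.

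Calls of Arg1 and Srm also depended on how arrays were put on one scale. Centring each array on its median in place of loess moved the median of all expressed genes by −0.26, −0.03 and −0.19 at 18, 54 and 162 µg. Relative to that median, Arg1 changed by 2.06, 2.65 and 1.70, and Srm by 0.81, 0.75 and 0.85, but neither was called at any dose under that scaling. Arg2 at 162 µg, at 1.38 relative to the median, was still called there.

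Odc1, which makes putrescine from ornithine one step before Srm, was not called. Its control log2 ratios were −0.91, −0.84, −0.75, −0.92 and −1.21, those at 54 µg were −0.72, −0.76, −0.90, −1.01 and −0.10, and the other dose groups ranged from −1.56 to −0.22 (18 µg) and from −1.13 to −0.11 (162 µg). The log2 fold changes were 0.23, 0.26 and 0.25 at the 3 doses, with 95% intervals up to 0.68, 0.74 and 0.70. Its other probes gave 0.53, 0.27 and 0.50 and, for the third, 0.21, 0.02 and 0.30, none called, with r = 0.429 between the first and the second probe. The highest upper limit of any Odc1 probe was 0.89, and the difference between Odc1 and Srm was not tested.

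Slc7a2 did not pass the test at any dose, although most treated mice lay above the controls. The controls had 0.58, 0.46, 0.75, 0.09 and 0.46 and the 54 µg mice 1.03, 1.57, 0.46, 1.01 and 1.00. The 18 µg mice ranged from 0.67 to 2.06 with a median of 1.07, and the 162 µg mice from 0.36 to 1.67 with a median of 1.15. Above every control were 5 of 6, 4 of 5 and 4 of 6 mice at the 3 rising doses. The log2 fold changes were 0.78 (SE 0.23, limma adjusted p = 0.0985), 0.44 (SE 0.25, adjusted p = 0.700) and 0.50 (SE 0.23, adjusted p = 0.272).

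Nos2, the other arginine-consuming enzyme, was not called at any dose against the controls, with log2 fold changes of 0.22, −0.02 and −0.26 at 18, 54 and 162 µg. The control log2 ratios were −0.33, −0.66, −0.74, −0.56 and −1.04, and those at 54 µg −0.39, −0.67, −0.85, −0.67 and −0.49. The 18 µg mice ranged from −0.75 to 0.15 with a median of −0.41, and the 162 µg mice from −1.20 to −0.61 with a median of −0.92. The probe was well above background on all 22 arrays. Between 162 and 18 µg Nos2 differed by −0.48 (SE 0.13, limma adjusted p = 0.0389), below the 1.5-fold minimum for a call. The interval of its change at 162 µg against controls, −0.54 to 0.02, held no rise comparable to that of Arg1 or Arg2.

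Ass1, which with argininosuccinate lyase remakes arginine, stayed within 0.22 of the controls in the fit. Its control log2 ratios were −1.36, −1.43, −1.77, −1.66 and −1.24, and the treated mice ranged from −1.94 to −0.99. The log2 fold changes were 0.22, −0.19 and 0.02, with limma adjusted p of 0.444, 0.796 and 0.967, and the second probe gave 0.25, −0.16 and 0.05.

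Sat1, the acetyltransferase of polyamine breakdown, was likewise not called, with log2 fold changes of −0.36, 0.11 and −0.05 (SE 0.25, 0.26 and 0.25). It varied widely within groups. The controls ranged from 0.58 to 1.65, the 18 µg mice from −0.29 to 1.61 and the 162 µg mice from −0.21 to 1.66, while the 54 µg mice had 1.43, 1.09, 1.33, 1.59 and 1.23.

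Among the 8 genes, Arg1 and Slc7a2 had the most similar pattern (Pearson r = 0.866 over 21 arrays), followed by Arg1 and Srm (0.743) and Arg1 and Odc1 (0.737). The lowest value was −0.469, for Arg2 and Nos2 over 22 arrays, and Arg1 and Arg2 had 0.357. These correlations are descriptions over arrays that share dose groups, slides and the reference.

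Over all expressed genes, those most like Arg1 were AA467197 (r = 0.947), the eosinophil-attracting chemokine Ccl11 (0.934) and the anion exchanger Slc26a4 (0.912). Those most like Arg2 were the decoy interleukin 1 receptor Il1r2 (0.945), the fibrinogen chain gene Fgg (0.916) and the myeloid surface lectin Cd33 (0.902). Srm was followed most closely by Rhof (0.920), the ribosome biogenesis factor Utp4 (0.887) and the splicing factor Prpf31 (0.882). All 3 genes nearest to Arg2 were called at 162 µg and none at 18 µg, and Fgg also at 54 µg. Of the 3 nearest to Arg1 only Slc26a4 was called, at 18 µg, although all 3 had large positive changes. The log2 fold changes at the 3 rising doses were 1.93, 2.15 and 2.13 for AA467197 and 2.01, 2.69 and 2.12 for Ccl11. Those of Slc26a4 were 3.06, 3.04 and 2.28.

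The other genes of the pathway were taken from 4 lists of 52 genes, of which 50 had a probe and 46 were expressed. Against controls, 2 of the 50 were called at 18 µg, 1 at 54 µg and 7 at 162 µg, of which 3 were lower. These were 4%, 2% and 14% of the 50, beside 1.69%, 0.29% and 5.61% of all genes. The median log2 fold change of the 46 was 0.07, 0.08 and 0.09, against −0.02, −0.01 and −0.01 for all expressed genes. Most genes of the pathway were not called at any dose.

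Transport of arginine held the clearest of these. Slc7a1, the widely expressed cationic amino acid transporter, rose at all 3 doses by 0.70, 0.65 and 0.70 on the log2 scale (SE 0.10, 0.11 and 0.10, limma adjusted p = 0.0066, 0.0181 and 7e-04). Its controls ranged from −2.42 to −1.96 and its treated mice from −1.66 to −1.06, with no overlap. Slc3a2, the heavy chain that pairs with several amino acid transporters, rose at 162 µg by 1.10 (SE 0.23, adjusted p = 0.0079), with changes of 0.23 and 0.56 that did not pass at the lower doses. The other 3 transport genes, Slc7a3, Slc7a6 and Slc7a7, were not called.

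**Figure D4:**
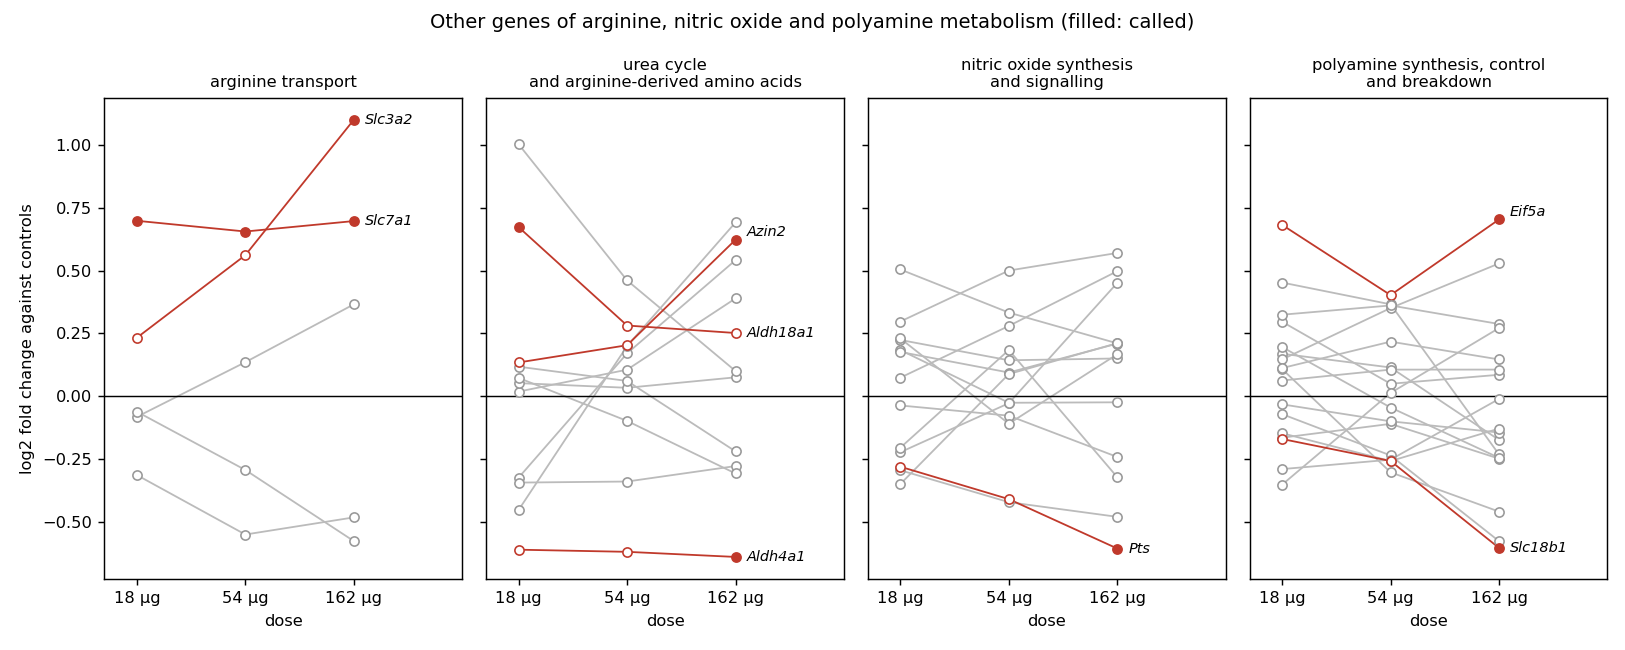
Log2 fold change against the vehicle controls (vertical axes) at each dose (horizontal axes) for the 46 expressed genes of the 4 pathway lists, with 1 line per gene. Filled points were called, and the 8 genes called at any dose are in red with their names. Slc7a1 has filled points at all 3 doses, near 0.70, and most grey lines stay near 0.

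In the urea cycle and arginine-derived amino acid list, 11 of 14 measured genes were expressed. Aldh18a1, which commits glutamate to proline and ornithine synthesis, rose at 18 µg by 0.67 (SE 0.15, limma adjusted p = 0.0374). Azin2, an antizyme inhibitor once annotated as an arginine decarboxylase, rose at 162 µg by 0.62 (adjusted p = 0.0393), and Aldh4a1, of proline breakdown, fell by 0.64 (adjusted p = 0.0168). The urea cycle genes Otc, Nags and Slc25a15 were not expressed.

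Of 13 expressed genes of nitric oxide synthesis and signalling 1 was called. Pts, which makes a precursor of tetrahydrobiopterin, the cofactor of nitric oxide synthases, fell by 0.60 at 162 µg (SE 0.15, limma adjusted p = 0.0212), and all 6 mice lay below every control. Nos3, the Ddah genes and the guanylate cyclase subunits were not called, and Nos1 was not expressed.

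Of 17 polyamine genes other than the members 2 were called, both at 162 µg. Eif5a, the translation factor that carries the spermidine-derived residue hypusine, rose by 0.70 (SE 0.17, limma adjusted p = 0.0184). It lay above every control in all treated mice of each dose, although 18 µg (0.68, adjusted p = 0.0522) and 54 µg (0.40, adjusted p = 0.539) did not pass. Slc18b1, a vesicular polyamine transporter, fell by 0.60 (adjusted p = 0.0249).

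Genes of alternative macrophage activation were examined beside Arg1. Of 16 listed genes 4 were called at 18 µg, 1 at 54 µg and 2 at 162 µg, all higher, with medians of 0.62, 0.71 and 0.68. Beside these counts, 0.52%, 0.18% and 2.72% of all genes were called higher at the 3 doses. Ccl17, a chemokine for Th2 cells, rose by 1.75, 1.78 and 1.46 at the 3 doses (limma adjusted p = 0.0174, 0.0376 and 0.0106). At 18 µg the secreted chitinase-like protein gene Chil3 (1.73, adjusted p = 0.0457), Retnla (1.51, adjusted p = 0.0326) and the ligand gene Pdcd1lg2 (0.72, adjusted p = 0.0435) also rose. Il4ra, the receptor chain for interleukins 4 and 13, rose at 162 µg by 0.73 (adjusted p = 0.0102).

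The mean log2 ratio of these 16 genes spanned 1.42 to 1.77 in the controls. It spanned 1.46 to 3.18 with 18 µg, 1.78 to 2.84 with 54 µg and 1.95 to 2.62 with 162 µg. The lowest and highest of the 18 µg mice, replicates 6 and 4, were also those with the lowest and highest Arg1. The lowest at 54 µg (1.78) was replicate 3, the mouse without an Arg1 value. The mean of the 3 expressed eosinophil markers, of 4 listed and none called, was 0.03 to 0.56 in controls and highest, 1.21, in 18 µg replicate 4. Alveolar macrophage markers had a mean of 3.38 to 3.69 in controls and 3.09 to 3.90 in treated mice. Of 8 only Marco was called against the controls (1.51 at 162 µg, limma adjusted p = 0.0046). The 7 measured markers of monocytes and recruited macrophages had median log2 fold changes of −0.11, −0.10 and −0.44 at the 3 rising doses. Of these 7, 2, 2 and 1 had positive changes, and none was called against the controls. The part of these cell types in the Arg1 result was not tested.

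Of 12 genes listed around Nos2 induction and Myc, 2 were called, both higher at 162 µg, beside 2.72% of all genes called higher there. Il6 was not well above background in any control. The estimated lower bound of its rise at 162 µg was 8.38-fold, a value from group means without an interval (limma adjusted p = 0.0015 for the fitted change). At 18 and 54 µg the bounds were 3.43-fold and 5.55-fold, and Il6 was not called there. Each bound sets the mean Cy5 signal of the dose group against the controls. For each control array it takes the higher of the Il6 signal and the dimmest signal well above background. The bounds are open to dye bias without dye swaps. Myc, a transcription factor with Odc1 and Srm among its known targets, rose 1.97-fold (0.98, SE 0.17, adjusted p = 0.0031), with 0.48 and 0.67 at the lower doses, which did not pass (adjusted p = 0.175 and 0.188).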

How the data were processed

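Per the labels and file headers, the authors labelled lung RNA with Cy5 and reference RNA with Cy3, hybridised 22 two-colour Agilent arrays without dye swaps and deposited the intensity of each spot from Feature Extraction 10.7.3.1. The authors' deposited table of log2 ratios served as an alternative. Here median signals without background subtraction were used, outlier-flagged spots were left out, log2 ratios were loess-normalized within arrays (span 0.3) and replicate spots of a probe were reduced to their median. A probe was expressed when its Cy5 signal exceeded the trimmed mean plus 3 trimmed SDs of 308 negative control spots on 80% of a group's arrays. Probes were named through RefSeq accessions (26413 of 55681). limma 3.58.1 (R 4.3.3) fitted dose and slide with 12 residual degrees of freedom. The number of arrays limits the precision.

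The genes and lists were chosen with earlier results of these data known. Named were all 8 genes, each called gene of the pathway and context lists, and the 3 genes with the most similar pattern to each called member; cell type markers are given where they were called or stand beside a result. Alternatives covered background, scaling, channel, filter, probe, slide, pairing, thresholds and single arrays; leaving out slide 3 was added after seeing the data.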

Additional observations from a re-analysis of the deposited data

Results flagged for a closer look

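Of 32 groups of the 8 genes tested for a value far from the rest, 1 was flagged, where chance flags about 1 in 20. It was Arg2 in 18 µg replicate 6, with a log2 ratio of 0.69 against 1.38 for the nearest mouse of its group. The same mouse had the lowest Arg1 (0.60), Slc7a2 (0.67) and Odc1 (−1.56) of the 18 µg group, and Srm (−1.24) near the middle of it. Its array lay on slide 6, which held no control. Without it the Arg1 change at 18 µg was 2.43.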

How the results depend on the processing

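Against the controls at 18, 54 and 162 µg, 2, 2 and 3 of the 8 genes were called, and 2, 1 and 7 of the other pathway genes. By scaling, the 8 genes gave 0, 0 and 1 with median centring and 0, 0 and 0 without normalization, and the other pathway genes 0 at every dose under both. At 54 µg quantile normalization and the deposited log2 table also gave 0 members, and normexp, the Cy5 channel alone and the fit without a slide term gave 1. At 18 µg normexp, quantile normalization, the deposited table, the fit without a slide term and the one without slide 3 gave 1, as a minimum of 2-fold did at 18 and 54 µg. Between 162 and 18 µg 1 member was called, 0 without normalization and 2 without a fold minimum. Over the fits without 1 array the members called ranged from 1 to 3, 0 to 2 and 2 to 3 at the 3 rising doses, and stayed at 1, 0 and 0 for 162 against 18 µg, 162 against 54 µg and 54 against 18 µg.

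For the other pathway genes the fits without 1 array gave 1 to 5, 0 to 2 and 3 to 10 calls at the 3 doses. At 18 µg quantile normalization and a 2-fold minimum gave 0, the Cy5 channel, the deposited table, the fit without slide and the fit of 2 groups gave 1, and slide as a random block and the mean over probes gave 4. At 54 µg quantile normalization, the Cy5 channel, the deposited table, the fit of 2 groups and the 2-fold minimum gave 0. At 162 µg quantile normalization gave 4, the Cy5 channel 2, the 2-fold minimum 1 and no fold minimum 14. The causes of these differences were not tested.

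The replicate numbers share no stated animal or day. Over 31 pairs of same-numbered arrays the deviations from the group means had a median correlation of 0.209 and a lowest of −0.252, with 18 above 0.1. Of these, 11 also shared a slide (median 0.303), while the 20 on different slides had a median of 0.085 and different-numbered pairs on the same slide 0.248. With the replicate number as a block in place of slide, 2, 2 and 3 members were called as before, and 4, 1 and 10 other pathway genes.

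Arg1 at 3 doses, Srm at 3 doses and Arg2 at 162 µg had positive changes under all 16 alternatives and all 22 fits without 1 array, but not all kept their calls. Among the 16, those that altered only the filter or the fold minimum kept the main fit's changes, so only calls could differ. The mean over probes likewise left the changes of genes with 1 probe as they were. Arg1 lost its call in 7, 6 and 5 of the 16 at 18, 54 and 162 µg. At each dose these included median centring, no normalization, normexp, quantile normalization and the deposited table, which at 162 µg gave adjusted p of 0.0738, 0.307, 0.0702, 0.0590 and 0.108. Srm lost it in 3, 6 and 2, and Arg2 at 162 µg in 1, without normalization. Changes of uncalled genes turned sign as follows. At 18 µg Arg2 became 0.10 (quantile) and 0.26 (Cy5 channel), and −0.19 to 0.16 without 1 array. Nos2 became −0.064 (median centring) and −0.22 (no normalization), Ass1 −0.17 and −0.33, and Odc1 −0.21 and −0.37 in the same order, and Sat1 0.024 (Cy5 channel). At 54 µg Nos2 became 0.10 (no normalization), 0.014 (Cy5 channel), 0.016 (deposited table), 0.052 (no slide term, and replicate block), 0.023 (random block), 0.13 (2 groups) and 0.094 (without slide 3), and −0.10 to 0.094 without 1 array, and Sat1 −0.042 (median centring). At 162 µg Ass1 became −0.27 (median centring), −0.29 (no normalization), −0.053 (quantile) and −0.0067 (deposited table), and −0.053 to 0.094 without 1 array. There Odc1 became −0.055 (median centring) and −0.070 (no normalization), and Sat1 2e-04 (quantile), 0.13 (Cy5 channel) and 0.10 (2 groups), and −0.17 to 0.12 without 1 array. Dim probes limit what could be seen, with Cy5 signals 1.18 to 2.5 times the local background at the median spot.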

Other observations

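Without the 1.5-fold minimum, 14 of the other pathway genes passed the adjusted p at 162 µg, 7 of them higher, against 7 called with it. The share of all genes passing in this way is not given here. Of those that passed only without the minimum, 2 polyamine genes are described, picked after their values were seen. Spermine synthase Sms, which takes spermidine on to spermine, had a log2 change of −0.57 against the controls (SE 0.10, limma adjusted p = 0.0033), with all 6 mice below every control. The polyamine oxidase gene Paox, which turns acetylated polyamines back, had 0.53 (SE 0.12, adjusted p = 0.0137), with all 6 mice above every control. At 18 µg the changes were −0.07 and 0.15, neither past the test.

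Gatm, which uses arginine to make the precursor of creatine, had its largest difference at 18 µg, where it was 1.00 (SE 0.27, limma adjusted p = 0.0734) with 5 of 6 mice above every control, against 0.46 at 54 µg and 0.10 at 162 µg. Prodh, the first enzyme of proline breakdown, had −0.45 at 18 µg and 0.69 at 162 µg (adjusted p = 0.323 and 0.0659). Neither passed the test at any dose against controls.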
